A study of Mus musculus with 9 samples.

Results

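AP-1 transcription factors were followed across BV+ and BV− cells with or without NRF1 overexpression (OE). The members were taken by gene symbol: *Jun*, *Junb*, *Jund*, *Fos*, *Fosb*, *Fosl1* and *Fosl2*, which are 7 of the 56691 genes in the deposited count tables. All 7 were found, each as 1 gene. Of these, 6 passed the filter on low counts and were tested, and *Fosl1* did not pass.

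RNA‐seq was performed on mouse BVSC pluripotent stem cells (PSCs), with fluorescent reporters for Blimp1 (mVenus, BV) and Stella (CFP), after differentiation as embryoid bodies (EBs) in IMDM with FBS. The PSCs carried a p20 vector with an *Nrf1* cDNA (NRF1 OE) or an empty p20 vector (Ctrl), and both received 1.5 μg/mL doxycycline (DOX) from day 2 to day 5. Sorting by the BV reporter gave 4 groups: BV+ with NRF1 OE (n = 2), BV+ with Ctrl (n = 2), BV− with NRF1 OE (n = 3) and BV− with Ctrl (n = 2). All libraries came from a single cell line. The study's methods call replicates biological and say that experiments were in general done independently 3 or more times. They do not say whether these libraries, 2 or 3 per group, came from separate cultures, so p‐values measure the spread between these samples.

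AP-1 is a dimer of basic leucine zipper proteins, either a JUN protein with a FOS protein or 2 JUN proteins, and it binds short DNA elements in promoters and enhancers. *Fos*, *Fosb*, *Jun* and *Junb* are immediate early genes, whose transcripts rise quickly and briefly after growth factors, serum or stress, whereas *Jund* is expressed more steadily in most cells. MAP kinases raise AP-1 activity both by phosphorylating its proteins and by activating the factors that bind the *Fos* and *Jun* promoters.

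Total counts per library lay between 13702162 and 19625460. *Nrf1*, the gene that was overexpressed, was measured at 95.7 and 99.4 CPM (counts scaled to library size) in BV+ NRF1 OE, 91.1 and 90.4 in BV+ Ctrl, 119, 122 and 126 in BV− NRF1 OE and 99.1 and 105 in BV− Ctrl. NRF1 OE libraries were above Ctrl in both populations, by 0.10 on the log2 scale in BV+ cells (edgeR adjusted p = 0.489) and by 0.26 in BV− cells (adjusted p = 0.0718), so neither difference passed. The labels call the cells pluripotent stem cells of EBs and the study calls BV+ cells primordial germ cell (PGC)‐like. Of 8 PGC markers, 0 were called higher in BV+ than in BV− cells by edgeR in either the NRF1 OE or the Ctrl libraries. At NRF1 OE 4 of them were called lower, and at Ctrl 2 had an unadjusted p under 0.05 and DESeq2 called 0. *Prdm1*, which encodes Blimp1, lay between 42.4 and 62.8 CPM in all 9 libraries. Summed CPM of 8 pluripotency markers was 3131 to 3484 in BV+ NRF1 OE and 3478 to 3678 in BV+ Ctrl. In BV− cells it was 4317 to 4502 with NRF1 OE and 3888 to 4041 with Ctrl. EdgeR called 4 of these markers lower and 0 higher in BV+ than in BV− cells at NRF1 OE. Of all genes, 3.85% were called lower there. At Ctrl it called 0 of these markers, with 2 at an unadjusted p under 0.05 and 0 by DESeq2. The populations are therefore named by their reporter here.

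Levels of 4 immediate early members moved together between libraries, as did that of *Fosl2*, which is not shown. The promoters of these 4 are shown. Each is the 250 bases before the RefSeq transcription start (assembly GRCm38.p6), printed 5′ to 3′ on the strand of the gene. Capitals mark matches on either strand to cyclic AMP response core elements, a variant AP-1 element, CCAAT boxes and TATA boxes, whose letters are given after the sequences. The windows are *Jun* at chr4:95052223-95052472 (minus strand), *Junb* at chr8:84978749-84978998 (minus), *Fos* at chr12:85473640-85473889 (plus) and *Fosb* at chr7:19310046-19310295 (minus).
Jun: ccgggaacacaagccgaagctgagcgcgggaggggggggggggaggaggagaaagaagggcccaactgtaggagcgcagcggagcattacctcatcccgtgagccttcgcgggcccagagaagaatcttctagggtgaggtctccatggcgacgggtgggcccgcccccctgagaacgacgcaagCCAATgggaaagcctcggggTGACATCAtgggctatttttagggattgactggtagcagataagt
Junb: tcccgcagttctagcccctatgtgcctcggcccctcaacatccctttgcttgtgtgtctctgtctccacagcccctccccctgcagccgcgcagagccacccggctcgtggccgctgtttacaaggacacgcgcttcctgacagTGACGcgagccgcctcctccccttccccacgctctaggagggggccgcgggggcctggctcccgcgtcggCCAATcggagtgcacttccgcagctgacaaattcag
Fos: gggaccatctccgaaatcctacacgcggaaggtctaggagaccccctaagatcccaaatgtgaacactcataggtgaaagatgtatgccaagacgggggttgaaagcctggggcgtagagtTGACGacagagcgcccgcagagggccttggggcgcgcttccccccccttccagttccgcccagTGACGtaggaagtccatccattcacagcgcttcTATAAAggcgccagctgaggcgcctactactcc
Fosb: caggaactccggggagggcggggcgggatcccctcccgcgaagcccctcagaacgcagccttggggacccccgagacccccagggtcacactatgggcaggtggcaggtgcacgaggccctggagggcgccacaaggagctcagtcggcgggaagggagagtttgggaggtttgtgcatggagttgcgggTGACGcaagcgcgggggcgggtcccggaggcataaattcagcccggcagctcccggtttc

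TGACG, the core of a cyclic AMP response element, was found once in the *Junb* window, 106 bases before the start, at 2 places in the *Fos* window, 129 and 66 bases before it, and once in the *Fosb* window, 60 bases before it. Of 27025 promoters of the same length, 17.9% hold it. TGACATCA, a variant of the AP-1 element, stood in the *Jun* window 45 bases before the start and in 3.02% of promoters. CCAAT was found in the *Jun* and *Junb* windows and in 34.5% of promoters, and TATAAA in the *Fos* window and in 13.0%. None of the 6 windows searched, which include *Jund* and *Fosl2*, held the AP-1 element TGANTCA (6.87% of promoters) or the full element TGACGTCA (1.62%). Nor did any hold the palindromic NRF1 element (0.781%), a shorter NRF1 motif, TGCGCA (6.66%), or a CArG box (1.4%). Only exact matches in the 250 bases before the start were searched, so elements elsewhere or with other letters would be missed. The study reports NRF1 binding at the *Jun* promoter from ChIP, which this search does not address. Both strands were searched, and TGACG is part of TGACGTCA. The RefSeq and GENCODE starts of *Jund* differ, so its window may not be that of the transcript counted. *Fosl1* had no entry.

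Among the JUN members, *Jun* encodes the founding subunit, which can pair with itself or with a FOS protein. It was measured at 68.9 and 60.7 CPM in BV+ NRF1 OE, 27.3 and 37.0 in BV+ Ctrl, 12.6, 20.6 and 9.42 in BV− NRF1 OE and 12.1 and 12.4 in BV− Ctrl. Every BV+ library was above every BV− library, and both BV+ NRF1 OE libraries were above both BV+ Ctrl libraries, while BV− NRF1 OE and BV− Ctrl overlapped. With NRF1 OE, *Jun* rose by 1.01 on the log2 scale in BV+ cells (SE 0.27, edgeR adjusted p = 0.0450). In BV− cells the difference was 0.21 (SE 0.27, edgeR adjusted p = 0.599).

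*Junb*, whose protein pairs with FOS and can oppose JUN on some genes, had the highest fold change with NRF1 OE in BV+ cells among the 6 members tested. Its levels were 64.9 and 43.0 CPM in BV+ NRF1 OE, 17.4 and 18.5 in BV+ Ctrl, 10.8, 18.9 and 10.5 in BV− NRF1 OE and 11.0 and 9.35 in BV− Ctrl. The BV+ NRF1 OE libraries stood above all others, and BV+ Ctrl overlapped BV− NRF1 OE through replicate 2 of the latter. *Junb* rose by 1.59 in BV+ cells (SE 0.27, edgeR adjusted p = 0.0134) and differed by 0.39 in BV− cells (SE 0.26, edgeR adjusted p = 0.285). The study itself named *Jun* and *Junb* from these libraries, so their direction here is not independent evidence. The exons of *Junb* overlap those of *Prdx2*, a peroxiredoxin gene on the opposite strand with 3240 to 6892 counts per library, and whether counting used strand is not stated. *Prdx2* differed by 0.53 with NRF1 OE in BV+ cells (edgeR adjusted p = 0.0585) and by -0.11 between BV+ and BV− cells at NRF1 OE (edgeR adjusted p = 0.665). With NRF1 OE in BV− cells it was called higher (0.59, edgeR adjusted p = 0.0334). Its part in the *Junb* result was not tested.

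*Jund*, the steadily expressed JUN member, followed another order. It was measured at 98.0 and 86.4 CPM in BV+ NRF1 OE, 73.9 and 81.7 in BV+ Ctrl, 105, 138 and 135 in BV− NRF1 OE and 87.5 and 93.7 in BV− Ctrl. BV− NRF1 OE was above all other libraries, and BV+ NRF1 OE overlapped BV− Ctrl. *Jund* rose with NRF1 OE in BV− cells by 0.48 (SE 0.13, edgeR adjusted p = 0.0400) and differed by 0.24 in BV+ cells (SE 0.15, edgeR adjusted p = 0.253).

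Among the FOS members, which must pair with a JUN protein to bind DNA, *Fos* was measured at 78.2 and 56.0 CPM in BV+ NRF1 OE, 27.3 and 42.4 in BV+ Ctrl, 12.0, 24.4 and 8.41 in BV− NRF1 OE and 20.5 and 9.45 in BV− Ctrl. The populations did not overlap, and the BV+ NRF1 OE libraries were above BV+ Ctrl. The difference with NRF1 OE was 0.94 in BV+ cells (SE 0.42, edgeR adjusted p = 0.149) and -0.01 in BV− cells (SE 0.42, edgeR adjusted p = 0.985), and neither passed.

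*Fosb*, which also gives rise to a truncated protein, ΔFosB, was measured at 16.5 and 7.73 CPM in BV+ NRF1 OE, 6.16 and 11.0 in BV+ Ctrl, 2.29, 4.57 and 0.711 in BV− NRF1 OE and 4.85 and 1.98 in BV− Ctrl. *Fosl2*, the gene of the FOS‐related protein Fra-2, was measured at 7.57 and 5.06 CPM in BV+ NRF1 OE, 3.87 and 5.09 in BV+ Ctrl, 1.57, 2.43 and 0.770 in BV− NRF1 OE and 1.01 and 1.07 in BV− Ctrl. For both genes the BV+ libraries were above the BV− libraries, and NRF1 OE overlapped Ctrl in each population. *Fosl1*, the gene of Fra-1, had 1 and 0 counts in BV+ NRF1 OE, 0 and 0 in BV+ Ctrl, 1, 0 and 2 in BV− NRF1 OE, and 7 and 1 in BV− Ctrl. A count of 0 allows up to 3 counts, or between 0.153 and 0.219 CPM in these libraries, by counting error only.

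**Figure D1:**
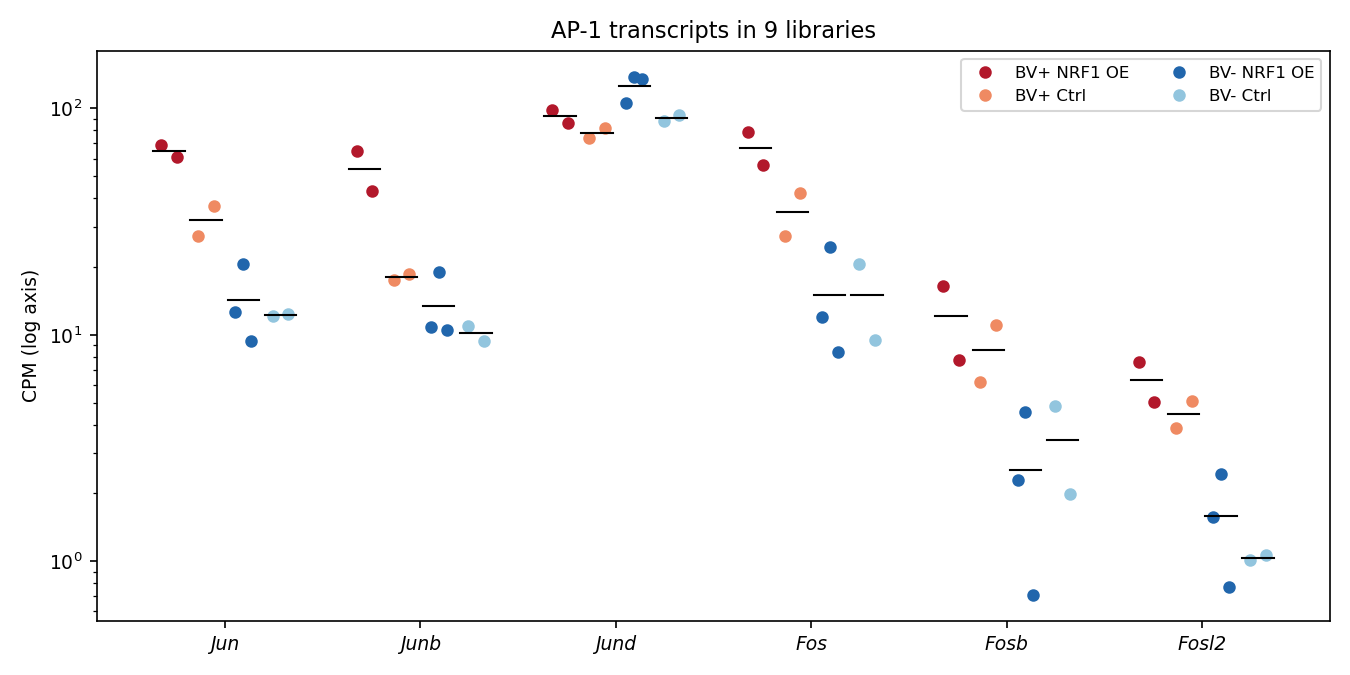
AP-1 transcripts in CPM on a log axis for 6 members, with 1 point per library, 4 groups by colour and black lines for group means. Except for *Jund*, every BV+ point lies above every BV− point at the same vector, and both BV+ NRF1 OE points of *Jun* (60.7 and 68.9 CPM) and *Junb* (43.0 and 64.9 CPM) lie above the BV+ Ctrl points.

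In BV+ cells, NRF1 OE against Ctrl therefore called 2 of the 6 members tested, *Jun* and *Junb*, both higher. Of all 16903 genes tested, 6.24% were called higher. The median log2 difference over the 6 members was 0.72, against 0.04 over all genes tested, and 0.55 with the offsets for GC content and length described further on. All 6 differences were above 0, but *Jund* was at -0.26 with those offsets and *Fosb* at -0.16 without BV+ NRF1 OE replicate 1. For 4 members the NRF1 OE libraries did not overlap Ctrl, which was the case upwards for 38.1% of all genes. By the study's own threshold, a log2 fold change beyond 0.58 in size with an unadjusted p under 0.05, *Jun*, *Junb* and *Fos* passed, against 9.78% of all genes that passed upwards. *Fos* was also called by edgeR without the filter on low counts (adjusted p = 8.28e-06), in a fit of only the groups compared (adjusted p = 0.0108) and without BV− NRF1 OE replicate 2 (adjusted p = 0.00935). The call on *Jun* was lost without any 1 of the 4 BV+ libraries, or either BV− Ctrl library, with differences between 0.81 and 1.25 and edgeR adjusted p from 0.0566 to 0.317. It was also lost when library size alone was used for scaling (0.97, edgeR adjusted p = 0.0544). With the replicate number as a block, the calls on *Jun* (1.03, edgeR adjusted p = 0.0615) and *Junb* (1.59, edgeR adjusted p = 0.0534) were both lost. The fit with this block called 3 of all genes. The call on *Junb* was lost without BV+ NRF1 OE replicate 1 (1.27, edgeR adjusted p = 0.171), BV+ Ctrl replicate 1 (1.55, edgeR adjusted p = 0.133) or BV+ Ctrl replicate 2 (1.64, edgeR adjusted p = 0.169). These 3 fits called 0 of all genes tested, against 1355 with all libraries, so the loss was not particular to *Junb*.

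In BV− cells, NRF1 OE called only *Jund* higher, where 10.2% of all genes were called higher. The median over the 6 members was 0.30, against 0.01 over all genes, and turned to -0.12 with offsets for GC content and length, under which *Jund* was at 0.02 and not called. *Jund* was also the 1 member whose NRF1 OE and Ctrl libraries did not overlap, as 29.4% of all genes did upwards. Its call was lost without BV− NRF1 OE replicate 3, either BV+ Ctrl library or either BV− Ctrl library, with differences between 0.42 and 0.51. These 5 fits called between 0 and 35 of all genes, against 2910 with all libraries. The call was also lost in a fit of only the groups compared (edgeR adjusted p = 0.0845), which called 0 genes.

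Whether NRF1 OE acted differently in the 2 populations was tested as an interaction, with a value of 1.20 for *Junb* (SE 0.37, edgeR adjusted p = 0.638), 0.80 for *Jun* (SE 0.38, adjusted p = 0.906), 0.96 for *Fos*, 0.95 for *Fosb*, -0.23 for *Jund* and -0.08 for *Fosl2*. EdgeR called 0 members and 0.0% of all genes for the interaction. At an unadjusted p under 0.05 there was 1 member, *Junb*, and DESeq2 called 0 members. Without BV− NRF1 OE replicate 2 the call was made for *Jun* (1.17, edgeR adjusted p = 0.0440) and *Junb* (1.52, edgeR adjusted p = 0.0143). With all libraries but no filter on low counts, *Junb* (1.18, edgeR adjusted p = 0.00290) and *Fos* (0.93, edgeR adjusted p = 0.0355) were called. Whether a member responded differently in BV+ and BV− cells thus depended on the filter and on 1 library.

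Between BV+ and BV− cells at NRF1 OE, all 6 members tested were called, 5 higher and 1 lower, against 9.9% of genes called higher and 3.85% called lower. *Jun* was higher by 2.20 (SE 0.25, edgeR adjusted p = 0.000146), *Junb* by 2.02 (SE 0.24, adjusted p = 0.000211) and *Fos* by 2.18 (SE 0.39, adjusted p = 0.00361). *Fosb* was higher by 2.31 (SE 0.55, adjusted p = 0.0168) and *Fosl2* by 2.02 (SE 0.35, adjusted p = 0.00288), whereas *Jund* was lower, at -0.45 (SE 0.13, adjusted p = 0.0462). The populations did not overlap for any of the 6, which was the case for 39.9% of all genes in either direction. Without BV+ NRF1 OE replicate 1, the calls on *Fos* (1.92), *Fosb* (1.66), *Fosl2* (1.70) and *Jund* (-0.54) were lost, and those on *Jun* and *Junb* were kept. The call on *Jund* was lost without any 1 of 8 libraries, all except BV− NRF1 OE replicate 1. It was also lost with library size alone (edgeR adjusted p = 0.0559) and in a fit of only the groups compared (adjusted p = 0.169). The call on *Fosb* was lost with DESeq2 (adjusted p = 0.0542). With the replicate number as a block, the calls on *Fosb* (1.80, edgeR adjusted p = 0.0869) and *Jund* (-0.39, edgeR adjusted p = 0.212) were lost. Of the mesenchyme markers described further on, 7 of 10 were called higher in the same comparison (median 2.62, with *Col1a2* at 5.08 and *Col1a1* at 4.57), as were 3 of 5 endothelium markers (median 3.73). Both blood markers tested were called higher (median 1.81), and of 4 neuroectoderm markers 2 were called higher and 1 lower (median 0.61). Of 6 endoderm markers 0 were called higher and 2 lower. The part of these cell types in the AP-1 result was not tested. In bulk samples, fewer cells of a type and less RNA per cell cannot be told apart.

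In Ctrl libraries, which share no library with the NRF1 OE comparison but entered the same fit, the same 5 members were above 0. *Jun* was higher in BV+ cells by 1.39 (SE 0.28, edgeR adjusted p = 0.0421) and *Fosl2* by 2.10 (SE 0.43, adjusted p = 0.0417). These 2 calls stand against 1.1% of all genes called higher. *Fosb* differed by 1.36 (adjusted p = 0.618), *Fos* by 1.23 (adjusted p = 0.419), *Junb* by 0.82 (adjusted p = 0.346) and *Jund* by -0.22 (adjusted p = 0.863). The median over the 6 was 1.29, against -0.01 over all genes, and the 5 members above 0 did not overlap between populations, as 22.6% of genes did upwards. Both calls were lost without either BV+ Ctrl library, either BV− Ctrl library or BV− NRF1 OE replicate 1. The call on *Jun* was also lost without either BV+ NRF1 OE library. For *Jun* the differences then lay between 1.16 and 1.59, and for *Fosl2* between 1.89 and 2.28.

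**Figure D2:**
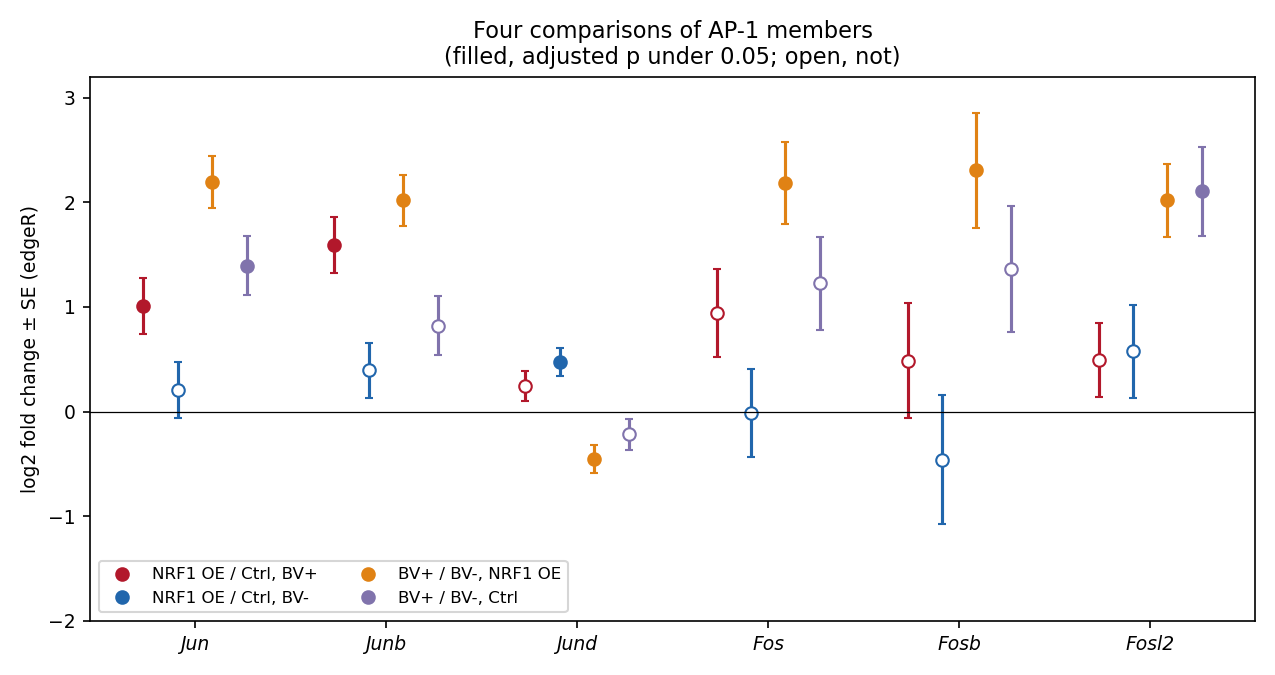
Log2 fold change with its SE for 6 members in 4 comparisons from a single edgeR fit, filled where the adjusted p is under 0.05. The comparison of BV+ with BV− at NRF1 OE is filled for all 6 and lies near 2 for every member except *Jund* at -0.45.

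Levels of different members were compared as FPKM, which are per length. In BV+ NRF1 OE, *Jund* had the highest FPKM (58.2 and 52.0), followed by *Fos* (32.9 and 23.9), *Junb* (27.9 and 18.8) and *Jun* (21.4 and 19.1). *Fos*, *Junb* and *Jun* overlapped their neighbours in this order, and *Fosb* (2.61 and 1.24), *Fosl2* (0.77 and 0.52) and *Fosl1* (0.03 and 0.00) lay below. In BV− Ctrl, *Jund* (53.0 and 56.3 FPKM) was again highest, and *Fos* (8.82 and 4.03), *Junb* (4.81 and 4.07) and *Jun* (3.83 and 3.89) came next.

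*Jund* made up 40.5% and 45.0% of the summed AP-1 FPKM in BV+ NRF1 OE, 60.4% and 55.1% in BV+ Ctrl, 81.5%, 76.1% and 87.7% in BV− NRF1 OE and 74.0% and 81.9% in BV− Ctrl. The summed FPKM was 144 and 116 in BV+ NRF1 OE, 75.1 and 91.1 in BV+ Ctrl, 75.9, 108 and 89.4 in BV− NRF1 OE and 71.5 and 68.8 in BV− Ctrl. Without *Jund* the sums were 85.6 and 63.6, 29.8 and 40.9, 14.1, 25.8 and 11.0, and 18.6 and 12.5 in the same order of groups. The pool without *Jund* was thus highest in BV+ NRF1 OE, next in BV+ Ctrl, and overlapped between both BV− groups. The ratio of *Junb* to *Jun* FPKM was 1.31 and 0.983 in BV+ NRF1 OE, 0.881 and 0.692 in BV+ Ctrl, 1.19, 1.27 and 1.54 in BV− NRF1 OE and 1.26 and 1.05 in BV− Ctrl. BV+ Ctrl was thus below the other groups, which overlapped.

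**Figure D3:**
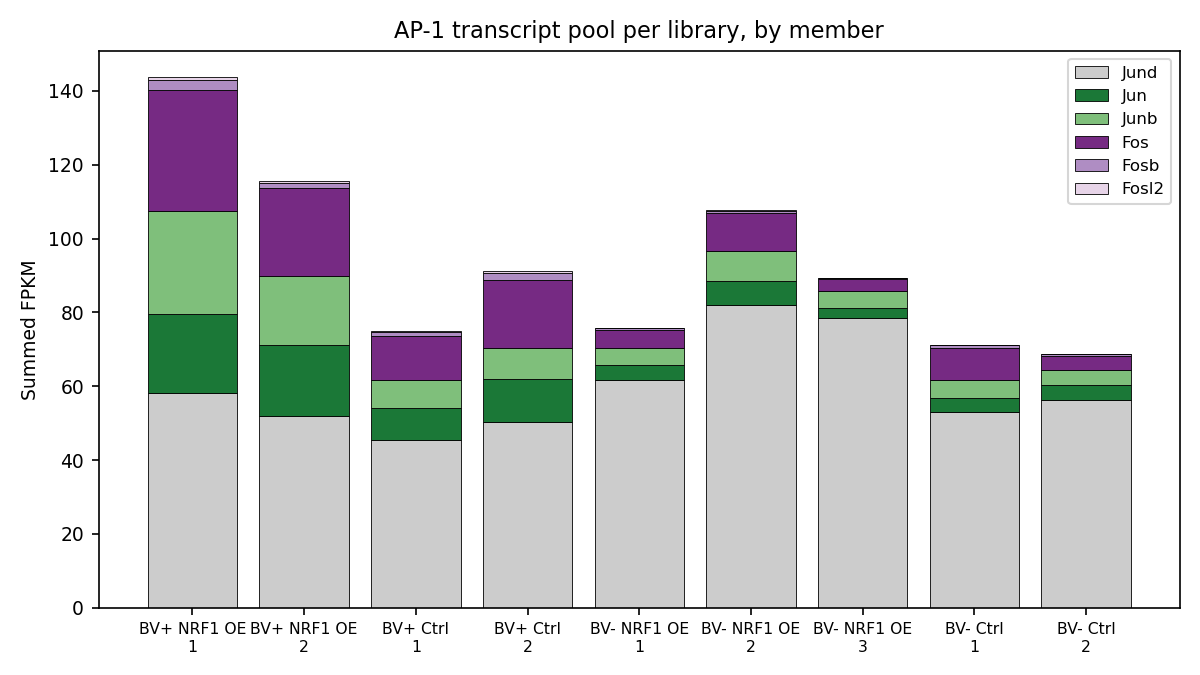
Summed FPKM of AP-1 members per library, stacked by member (*Fosl1*, at most 0.22 FPKM, is not drawn). The grey *Jund* segment is 40.5% and 45.0% of the bar in BV+ NRF1 OE and at least 74.0% in each BV− library.

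The members also varied together within groups. All 6 were highest in replicate 1 of BV+ NRF1 OE, in replicate 2 of BV+ Ctrl and in replicate 2 of BV− NRF1 OE. The relation of counts to GC content, described further on, was also highest in those replicates of BV+ and BV− NRF1 OE (rho 0.349 and 0.713). In BV+ Ctrl it was alike in both replicates (-0.632 and -0.63). Its part in this order was not tested. In BV− NRF1 OE the CPM of the highest library was 6.43 times that of the lowest for *Fosb*, 2.90 times for *Fos*, 2.19 times for *Jun* and 1.31 times for *Jund*. In BV− Ctrl, replicate 1 was highest for *Fos* (2.17 times replicate 2), *Fosb* (2.46 times) and *Junb* (1.17 times). Over the 9 libraries, which share their groups and depth, Pearson r of log2 CPM was 0.96 for *Jun* with *Fos*, 0.97 for *Jun* with *Fosl2* and 0.95 for *Fos* with *Fosb*. After the group means were removed, *Fos* with *Fosb* was at 0.95 and *Jun* with *Fosl2* at 0.94, whereas *Jund* with the other members lay between 0.08 and 0.54.

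Among 10987 genes with a mean of at least 5 CPM, the patterns most like that of *Jun* over the 9 libraries were those of *Sel1l3* (r = 0.98), *Synpo2l* (0.98) and *Nuak1* (0.98). For *Junb* they were *Lmna* (r = 0.995), which encodes lamin A/C, *Iffo2* (0.99) and *Tnfrsf1a* (0.99), a TNF receptor. For *Jund* they were *Cc2d1a* (0.995), *Aaas* (0.991) and *Rbm14* (0.985). For *Fos* they were *Lratd2* (0.99), *Egr1* (0.96), another immediate early gene, and *Lgi2* (0.96).

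Counts followed the GC content of transcripts differently in NRF1 OE and Ctrl libraries. Spearman's rho of a gene's deviation from its mean with GC content, across 11335 genes that are not independent replicates, was 0.349 and -0.0218 in BV+ NRF1 OE, 0.0755, 0.713 and 0.628 in BV− NRF1 OE, and between -0.632 and -0.553 in the 4 Ctrl libraries. *Jund* has the highest transcript GC content of the members (67.2%), followed by *Junb* (62.6%), and *Jun* is at 55.5% and *Fos* at 51.9%. With offsets that removed this trend and that over transcript length from each library, NRF1 OE in BV+ cells gave 1.09 for *Junb* (edgeR adjusted p = 0.00501), 0.72 for *Jun* (adjusted p = 0.0466) and -0.26 for *Jund* (adjusted p = 0.0470). In BV− cells *Jund* was then at 0.02 (adjusted p = 0.891). The rise of *Jund* in BV− cells was thus not kept and its difference in BV+ cells turned direction, while *Jun* and *Junb* in BV+ cells kept direction and call. Between BV+ and BV− cells at NRF1 OE, all 6 members were called with these offsets, in the same directions.

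**Figure D4:**
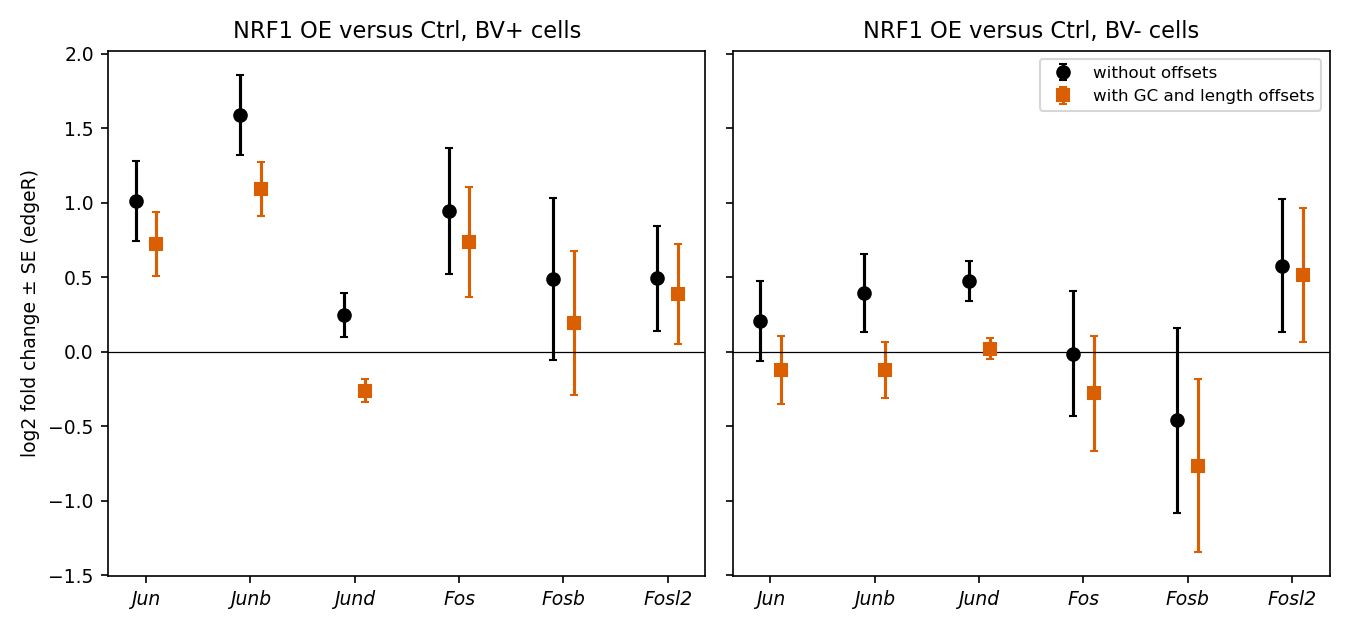
Log2 fold change with NRF1 OE and its SE for 6 members in BV+ and BV− cells, without (black circles) and with (orange squares) offsets for GC content and transcript length. *Jund* moves from 0.24 to -0.26 in BV+ cells and from 0.48 to 0.02 in BV− cells, and *Junb* from 1.59 to 1.09 in BV+ cells.

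The genes around AP-1 were described by lists, whose counts stand against all genes tested: 6.24% were called higher and 1.78% lower with NRF1 OE in BV+ cells, and 10.2% higher and 6.98% lower in BV− cells. In BV+ against BV− cells, 9.9% were called higher and 3.85% lower at NRF1 OE, and 1.1% higher and 0.0237% lower at Ctrl. A list of 17 kinase genes held MAP kinases, the kinases upstream of them and ribosomal S6 kinases. Of these 17, edgeR called 0 in BV+ cells with NRF1 OE (4 at an unadjusted p under 0.05, 1 by DESeq2). Between BV+ and BV− Ctrl it called 0 (0 unadjusted, 0 by DESeq2). With NRF1 OE in BV− cells 3 were called higher, *Mapk3* (0.55), *Map2k2* (0.52) and *Rps6ka1* (0.38), and *Mapk8*, the gene of the JUN kinase JNK1, was called lower (-0.55). *Mapk8* was also the 1 called, higher in BV+ than in BV− cells, at NRF1 OE (0.56). Of 11 MAP kinase phosphatases, which switch these kinases off, 1 was called higher in BV+ cells with NRF1 OE, *Dusp5* (0.72, edgeR adjusted p = 0.0470), a share near that of all genes, and in BV− cells 2 were called higher and 1 lower. Of 12 factors that bind the *Fos* and *Jun* promoters, 3 were called higher and 0 lower, the MEF2 factors *Mef2c* (0.99) and *Mef2d* (0.71) and the ETS factor *Elk3* (0.89). In BV− cells 2 were called higher and 3 lower, and *Elk3* was among the lower ones (-0.53, edgeR adjusted p = 0.0371). *Mef2c* was also the 1 called between BV+ and BV− Ctrl (3.03, edgeR adjusted p = 0.00125). *Maf*, the gene of a leucine zipper factor that can pair with AP-1 proteins, was called higher with NRF1 OE in BV+ cells (1.16, edgeR adjusted p = 0.0479).

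Of 17 tested AP-1 target genes, 4 were called higher and 0 lower with NRF1 OE in BV+ cells. They included the matrix protease *Mmp9* (1.40), the growth factor *Tgfb1* (1.38) and the hyaluronan receptor *Cd44* (1.15). In BV− cells 0 were called higher by edgeR and 2 lower, *Hmga2* (-0.75) and *Gja1* (-0.42), with 8 at an unadjusted p under 0.05 in either direction and 5 called by DESeq2. *Mmp9* was at 31.0 and 23.1 CPM in BV+ NRF1 OE, 8.52 and 12.0 in BV+ Ctrl, 2.47, 3.09 and 2.01 in BV− NRF1 OE and 1.83 and 2.99 in BV− Ctrl. The order of the groups was that of *Jun*, with both BV+ groups above both BV− groups. Not every target shared it. With NRF1 OE in BV+ cells 13 of the 17 were above 0, and in BV+ against BV− cells at NRF1 OE 11 were. Between BV+ and BV− cells, 9 targets were called higher and 1 lower at NRF1 OE, and 3 higher and 0 lower at Ctrl, *Mmp9* (2.07), *Cd44* (1.63) and the chromatin protein gene *Hmga2* (1.31).

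Of 18 other immediate early genes, 7 were called higher and 1 lower with NRF1 OE in BV+ cells. *Socs3*, an inhibitor of cytokine signalling, rose by 1.63, *Zfp36*, whose protein promotes mRNA decay, by 1.31, and the matricellular gene *Ccn1* by 1.14, while *Klf4* fell, at -0.67. In BV− cells 3 were called higher and 2 lower. Between BV+ and BV− Ctrl, edgeR called 0 of the 18 (5 at an unadjusted p under 0.05, 0 by DESeq2). At NRF1 OE 6 were called higher and 1 lower in BV+ than in BV− cells, and DESeq2 called 8. The median over the 18 genes was 0.51 with NRF1 OE in BV+ cells, while BV+ against BV− gave 0.48 with NRF1 OE and 0.29 with Ctrl. Of 8 heat shock genes, edgeR called 0 with NRF1 OE in BV+ cells and 0 between BV+ and BV− Ctrl (2 and 4 at an unadjusted p under 0.05, 0 and 0 by DESeq2). With NRF1 OE in BV− cells 2 were called higher, *Hspb1* (0.48) and *Dnajb1* (0.42), and *Hsph1* was called lower (-0.54). At NRF1 OE 3 were called lower in BV+ than in BV− cells, *Hspa1b* (-0.64), *Hspb1* (-0.63) and *Dnajb1* (-0.37).

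Markers of some other cell types also differed between groups. The summed CPM of 12 mesenchyme markers was 765 to 1298 in BV+ NRF1 OE, 230 to 234 in BV+ Ctrl, 93.6 to 137 in BV− NRF1 OE and 65.1 to 78.1 in BV− Ctrl. With NRF1 OE in BV+ cells 6 of the 10 tested were called higher and 1 lower, *Pdgfra* (-1.17). The higher ones included *Acta2* (2.31), the smooth muscle actin, and the collagens *Col1a2* (2.26) and *Col1a1* (1.96). In BV− cells, where *Jun* and *Junb* were not called, NRF1 OE called 3 mesenchyme markers higher and 1 lower. Between BV+ and BV− Ctrl, 3 were called higher, *Col3a1* (3.93), *Col1a2* (3.46) and *Col1a1* (2.80). *Lum* was at 0 in BV− Ctrl but at most 0.109 CPM in any library, so its 0 shows no difference between groups. Of 5 endothelium markers, 3 were called higher with NRF1 OE in BV+ cells, *Emcn* (2.11), *Cdh5* (1.59) and *Kdr* (1.49), and 2 between BV+ and BV− Ctrl, *Cdh5* (2.09) and *Kdr* (1.75). *Kdr* was at 25.5 and 17.1 CPM in BV+ NRF1 OE and at 1.89 and 2.56 in BV− Ctrl, where *Emcn* was at 0. The summed CPM of the 5 was 149 to 188 in BV+ NRF1 OE and 180 to 186 in BV− Ctrl, and most of it came from *Pecam1*, at 100 to 171 CPM per library. *Nes*, listed here as a marker of neural progenitors, was the 1 of 4 neuroectoderm markers called higher in both comparisons (1.60 and 1.94). Of the 4, only 2 were above 0 with NRF1 OE in BV+ cells (median 0.22). Between BV+ and BV− Ctrl 3 were above 0 (median 0.53), and 0 were called lower in either. Neither of the 2 blood markers tested was called with NRF1 OE in BV+ cells by edgeR (1 at an unadjusted p under 0.05, 1 by DESeq2). Both were called higher in BV+ than in BV− cells at NRF1 OE, *Tal1* (2.54) and *Runx1* (1.09). The blood list summed to at most 10.3 CPM in any library, with *Ptprc* at 0 in 3 of the 4 groups. All 6 endoderm markers were below 0 with NRF1 OE in BV+ cells, and 1 was called lower, *Cubn* (-1.59). The part of these cell types in the AP-1 results was not tested.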

How the data were processed

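Poly(A) RNA‐seq of 9 sorted libraries in 4 groups was analysed. Per the labels and the study's methods, the authors trimmed reads with Cutadapt, aligned those to GRCm39 by HISAT2 2.0.1 and used HTSeq 0.6.1 for counting. The deposited values are raw counts of each gene, which are not normalized, and FPKM, which the authors calculated per length and depth. Strand use in counting is not given in the sources used here. The 0 lines that name no gene left the totals unchanged.

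Here, counts were tested with edgeR 4.0.16 (R 4.3.3, limma 3.58.1) (quasi‐likelihood F test, two‐sided), all 9 libraries being fitted together by group. TMM factors were used and filterByExpr kept 16903 genes. P‐values were adjusted by Benjamini‐Hochberg over all of these, and a call is an adjusted p under 0.05. CPM used TMM library sizes, and log2 CPM a prior count of 2. FPKM served only to compare members. DESeq2 1.42.0 was an alternative, beside other scaling factors, no filter, fits of the groups compared, the replicate number as a block, offsets for GC content and length, and leaving out each library. GC content came from the GENCODE annotation of GRCm38. The procedures were tested on simulated counts. Figures were drawn with Python and matplotlib.

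All 7 members are named. From each other list, up to 3 called genes with the largest change are named for NRF1 OE in BV+ cells and for BV+ against BV− Ctrl. Those named for BV− cells, for BV+ against BV− at NRF1 OE and *Pdgfra* and *Pecam1* were added after their values were seen. For likeness of pattern, 3 genes each are named for *Jun*, *Junb*, *Jund* and *Fos*. *Nrf1*, *Prdm1* and *Prdx2* were added, and *Lum*, *Emcn* and *Ptprc* are named for being at 0. The members and lists were chosen with earlier results of these data known. For the list of leucine zipper partners of AP-1, 1 gene and the list's counts are not reported here. Other experiments of the study were not analysed here.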

Additional observations from a re-analysis of the deposited data

How the results depend on the processing

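Among the 540 results of members under alternatives, 453 kept direction and side of the threshold. With NRF1 OE in BV+ cells the 2 calls became 1 with library size alone, 0 with the replicate block (*Jun* 1.03, edgeR adjusted p = 0.0615, and *Junb* 1.59, adjusted p = 0.0534), 3 without a filter, 3 in a fit of only the groups compared (*Fos* added in both), 3 with GC and length offsets (*Jund* added, lower), and 0 to 3 when each library was left out. In BV− cells the 1 call became 0 in a fit of only the groups compared, 0 with the replicate block (*Jund* edgeR adjusted p = 0.1299), 0 with GC and length offsets, 0 with both, and 0 to 1 with libraries left out. Between BV+ and BV− at NRF1 OE the 6 calls became 2 to 6 with libraries left out, 4 with the replicate block (*Fosb* and *Jund* lost), 5 with DESeq2 (*Fosb* lost), and 5 with library size alone and in a fit of only the groups compared (*Jund* lost in both). At Ctrl the 2 calls became 5 without a filter, 5 in a fit of only the groups compared and 0 to 4 with libraries left out. Of the 19 alternatives at Ctrl, 5 called *Junb*, 4 *Fos*, 3 *Fosb* and 1 *Jund*. For the interaction, 0 became 2 without a filter and 2 without BV− NRF1 OE replicate 2. The cause was not tested. Over all genes, 1355, 2910, 2325, 190 and 0 were called in these 5 comparisons, and between 0 and 4957, 0 and 5847, 786 and 3797, 31 and 2079, and 0 and 108 under the alternatives.

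In BV+ cells *Jund* was at -0.26 with GC and length offsets and at -0.26 with the replicate block added, and *Fosb* lay between -0.16 and 0.98 with libraries left out. In BV− cells, *Fos* was at 0.0164 with upper‐quartile factors, 0.27 with the replicate block and 0.0091 with offsets and the block. *Fosb* was at 0.0359 with the block. *Jun* and *Junb* were at -0.12 and -0.12 with offsets, and *Jund*, which had been called in BV− cells, was at -0.0092 with offsets and the block. With libraries left out in BV− cells, *Fos* lay between -0.57 and 0.64, *Fosb* between -1.19 and 0.31, and *Jun* between -0.18 and 0.44. For the interaction, *Fosl2* lay between -0.45 and 0.33 with libraries left out.

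Replicate numbers are shared by the groups but nothing in the labels pairs them, and deviations of same‐numbered libraries correlated at 0.492 and 0.518 in BV− cells, at -0.00195 between the BV+ groups, at -0.412 and -0.568 between BV+ and BV− NRF1 OE and at -0.243 between the Ctrl groups. With the replicate block, 0, 0, 4, 2 and 0 members were called in the 5 comparisons. Crossing the numbers between the Ctrl groups, chosen after seeing the data, called 6 members. With 1 library left in a group, its spread was assumed to be like that of the other groups. Members below a few CPM, *Fosb* and *Fosl2* in BV− cells, are limited by depth, with 12 and 13 counts in their lowest library.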
